A study of Mus musculus with 6 samples.

Results

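The proteins of the spliceosomal small nuclear ribonucleoproteins (snRNPs), the splicing factors SF3A, SF3B and PRPF and the heterogeneous nuclear ribonucleoproteins (hnRNPs) were followed as mRNA in mouse liver. The set was defined by symbol and a read minimum, with earlier results of these data known. It holds the rows of the deposited count table whose symbol begins with Snrp, Snrnp, Sf3a, Sf3b, Prpf or Hnrnp, leaving out Snrnp70, names ending in -ps and rows under 10 reads summed over the 6 libraries. The pattern matched 67 rows, 4 of them named -ps, and 62 rows remained of 56674. Of these, 60 were protein-coding genes with a role in splicing or RNA binding, 1 was a second row under the name Prpf39 and 1 was the processed pseudogene Snrpert. The study compared livers of C57BL/6 males, an inbred mouse strain in wide laboratory use, that were reared for 71 weeks. Normal chow gave the 3 control libraries, and food with PB-MP, a polypropylene black microplastic, gave the other 3. Whether each library is a different mouse is not said in the labels, and p-values therefore reflect only library-to-library spread, some or all of which may be technical. The comparison addressed whether prolonged intake of this plastic altered hepatic gene expression.

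Introns are removed from pre-mRNA by the spliceosome, which is built from snRNPs, each a small nuclear RNA with a ring of Sm proteins and proteins of its own. U1 marks the start of the intron, U2 with SF3A and SF3B clamps the branch point, and the U4/U6 and U5 particles then join and are remodelled into the catalytic machine, while a minor set with U11 and U12 serves a rare class of introns. The hnRNPs coat nascent transcripts and steer which exons are kept, and several of them, like the SR proteins they often oppose, limit their own mRNA by splicing it into forms that are degraded.

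All 6 libraries had the RNA of liver, the summed level of 8 hepatocyte markers being 64892 to 74174 CPM (reads relative to library size, scaled by TMM, a factor per library that sets most genes level) in control and 69299 to 76769 CPM in PB-MP. The libraries held 68357478 to 112566641 counted reads, and a count of 3 reads, the limit that a count of 0 allows, was 0.0285 to 0.0495 CPM (counting error only). Mitochondrial mRNA took 14.2 to 15.1% of the reads in control and 8.73 to 10.1% in PB-MP. Scaling by library size alone raised the median log2 fold change of all genes from 0.01 to 0.23, so fold changes here are relative to most genes. Together the 62 rows summed to 1783, 1964 and 1980 CPM in control replicates 1, 2 and 3 and to 2023, 1997 and 1733 CPM in PB-MP replicates 1, 2 and 3. In bulk tissue, fewer cells of a type and less RNA per cell cannot be told apart.

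Among the 61 tested members, 5 had an unadjusted p below 0.05 with higher values in PB-MP (8.20%, against 7.35% of all genes tested), and none passed the adjusted threshold. They were Hnrnpdl, Prpf40b, Hnrnph3, Snrnp48 and Hnrnph1. Their promoters are shown because the results below turn on these genes, with that of Hnrnpd beside its relative Hnrnpdl. Each sequence is the 250 bases before the start site in the RefSeq table of GRCm38.p6, read 5′ to 3′ along the gene's strand. Where several starts were listed, the one with most GENCODE transcripts was taken. None of the marked matches overlap each other. Capitals mark matches on either strand to the SP1 box GGGCGG, the CCAAT box CCAAT, the ETS motif CCGGAAG and the TATA box TATAAA.
Hnrnpdl (chr5:100039223-100039472, minus strand): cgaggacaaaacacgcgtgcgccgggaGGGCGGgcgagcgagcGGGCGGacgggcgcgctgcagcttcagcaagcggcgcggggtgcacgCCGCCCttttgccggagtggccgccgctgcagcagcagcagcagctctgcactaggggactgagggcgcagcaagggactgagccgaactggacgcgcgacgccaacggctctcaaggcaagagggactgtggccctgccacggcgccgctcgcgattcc
Hnrnpd (chr5:99978939-99979188, minus strand): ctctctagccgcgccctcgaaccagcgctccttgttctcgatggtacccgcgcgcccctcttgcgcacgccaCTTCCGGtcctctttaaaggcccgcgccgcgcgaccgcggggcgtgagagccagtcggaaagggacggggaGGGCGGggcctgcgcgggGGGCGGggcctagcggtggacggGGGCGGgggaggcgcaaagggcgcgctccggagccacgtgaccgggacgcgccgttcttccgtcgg
Prpf40b (chr15:99294991-99295240, plus strand): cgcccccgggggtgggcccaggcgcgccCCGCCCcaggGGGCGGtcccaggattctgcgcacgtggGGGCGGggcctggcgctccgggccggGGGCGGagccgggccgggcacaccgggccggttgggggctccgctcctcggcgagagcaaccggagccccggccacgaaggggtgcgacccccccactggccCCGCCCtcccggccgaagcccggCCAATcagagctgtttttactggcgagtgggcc
Hnrnph3 (chr10:63023850-63024099, minus strand): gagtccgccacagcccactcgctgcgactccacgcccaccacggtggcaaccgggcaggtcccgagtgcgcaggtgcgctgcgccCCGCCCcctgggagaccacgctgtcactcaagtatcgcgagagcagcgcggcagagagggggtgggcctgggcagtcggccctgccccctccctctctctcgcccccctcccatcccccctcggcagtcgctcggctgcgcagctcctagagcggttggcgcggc
Snrnp48 (chr13:38204689-38204938, plus strand): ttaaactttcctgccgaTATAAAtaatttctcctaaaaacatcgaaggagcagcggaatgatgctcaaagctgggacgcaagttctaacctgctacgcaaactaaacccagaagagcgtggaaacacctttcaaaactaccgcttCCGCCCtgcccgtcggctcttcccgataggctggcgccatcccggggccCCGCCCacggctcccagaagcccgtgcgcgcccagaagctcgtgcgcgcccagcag
Hnrnph1 (chr11:50377547-50377796, plus strand): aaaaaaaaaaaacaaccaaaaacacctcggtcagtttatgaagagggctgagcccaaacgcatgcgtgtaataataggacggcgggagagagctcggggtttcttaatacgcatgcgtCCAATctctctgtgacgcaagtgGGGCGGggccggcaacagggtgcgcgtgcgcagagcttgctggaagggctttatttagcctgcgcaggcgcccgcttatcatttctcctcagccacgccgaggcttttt

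The table held a promoter for 51 members. GGGCGG was found in 33 of these 51 windows (64.7%) and in 33.2% of the windows of 27025 genes, and in all 5 windows of the genes above, where Prpf40b had 5 matches, Hnrnpdl 3, Snrnp48 2, and Hnrnph1 and Hnrnph3 1 each. CCGGAAG was in 15 of 51 (29.4%) against 7.19% of all windows, among them that of Hnrnpd but none of the 5. CCAAT was in 25 of 51 (49.0% against 34.5%) and TATAAA in 4 of 51 (7.84% against 12.9%), 1 of them Snrnp48. No member window held the NRF1, YY1 or ZBTB33 motif, which were in 0.796%, 0.303% and 0.407% of all windows. The members' windows had a median G+C content of 58.4% against 52.4% for all genes, and a median of 19 CpG pairs against 6. For the 5 genes above these medians were higher still, at 72% and 25. The part of base composition in the motif shares was not tested, and a match is a description of letters only.

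No member passed an adjusted p of 0.05 in the quasi-likelihood test of edgeR (0 of 61 tested, lowest adjusted p 0.207), and no gene of the 17871 tested did (0.00%, lowest adjusted p 0.124). At an unadjusted p below 0.05, 5 of 61 members were higher in PB-MP (8.20%) against 7.35% of all genes, and 0 were lower against 4.74%. All 3 PB-MP libraries lay above all 3 control libraries for 5 members (8.20%, against 11.4% of all genes), the same 5 genes. They lay below for 5 others (8.20%, against 8.49%), namely Snrpd2, Snrpn, Snrpg, Snrnp25 and Hnrnpab. The shares of members called higher or separated were thus near those of all genes. The median log2 fold change was -0.01 over the members and 0.01 over all genes, with 29 members above 0 and 32 below.

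For 44 of 61 members (72.1%) the log2 fold change had a 95% interval inside -1 to 1, which held for 45.7% of all genes and for 62.8% of the 12546 genes that averaged 1 CPM or more. The median half-width of that interval was 0.52 over the members and 0.59 over genes of at least 1 CPM. Estimates beyond 1.5-fold in either direction were found for 8 members (13.1%, against 27.0% of all genes): Hnrnph1, Prpf40b, Prpf39, Hnrnpdl, Hnrnph3, Snrnp48 and Snrpa1 on the higher side and Hnrnpu on the lower. DESeq2, run as an alternative on the same counts, called Hnrnpdl (adjusted p 0.0164) and Prpf40b (adjusted p 0.0166) among 61 members (3.28%), where it called 1.72% of all genes higher and 0.719% lower. Limma-voom called no member, and with library quality weights 5 members had an adjusted p below 0.1 (8.20%, against 4.19% of all genes).

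**Figure D1:**
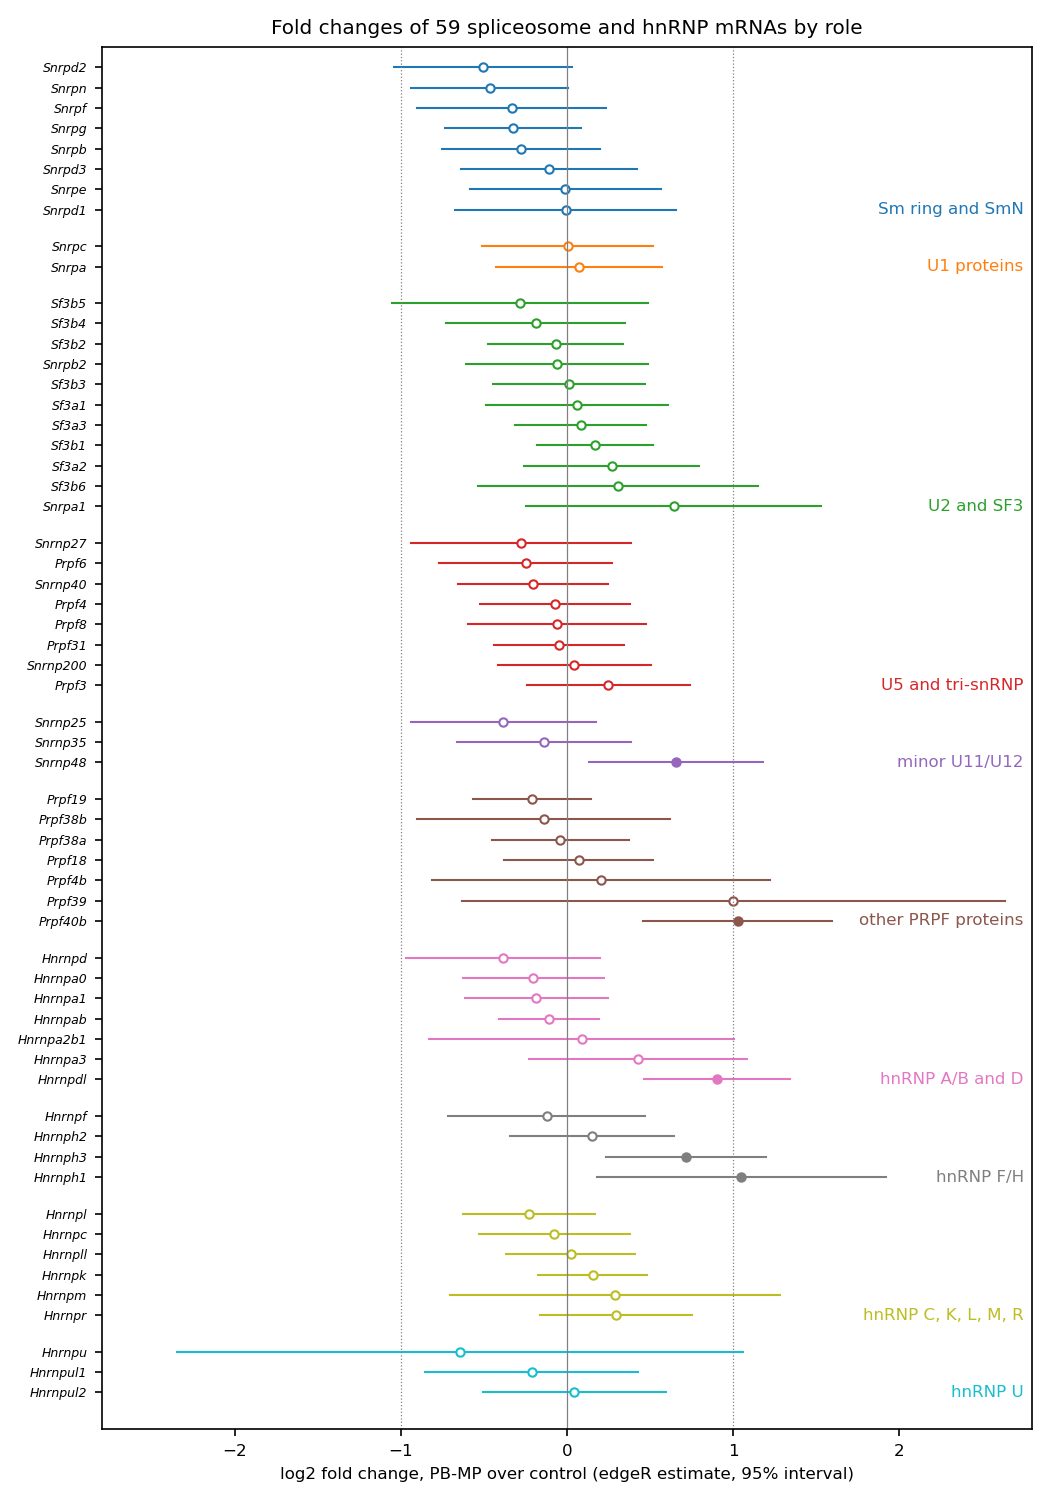
Log2 fold change of PB-MP over control (x axis, edgeR estimate with its 95% interval, n = 3 libraries a group) for 59 members with a role, grouped and coloured by role; filled points have an unadjusted p below 0.05 and dotted lines mark -1 and 1. The 5 filled points all lie to the right of 0. All 8 genes of the Sm ring lie at or left of 0 in this fit (6 of 8 with a 1 CPM filter, 5 of 8 by library size alone).

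Below, values per library are in TMM-scaled CPM and in the order of replicates 1, 2 and 3, and log2 fold changes (PB-MP over control) are given ± SE from edgeR, with n = 3 libraries in each group.

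The hnRNP F/H proteins bind runs of G in introns and exons. Hnrnph1, the best known of them, was at 13.4, 25.7 and 9.60 CPM in control and 40.8, 31.7 and 28.3 CPM in PB-MP, a log2 fold change of 1.05 ± 0.37 (edgeR adjusted p 0.345). Control replicate 2 was the highest control library and lay just under the lowest PB-MP library, so the groups did not overlap. Without control replicate 1 or 3, or without PB-MP replicate 1, its unadjusted p no longer stayed below 0.05. Hnrnph3, a shorter relative, was at 3.68, 3.94 and 3.31 CPM in control and 5.26, 6.70 and 6.01 CPM in PB-MP (0.72 ± 0.21, edgeR adjusted p 0.279). Its control libraries lay close together and below every PB-MP library, and Rufy2 overlaps it on the opposite strand. Hnrnph2, the X-linked near twin of Hnrnph1, was at 23.2, 35.6 and 28.4 CPM in control and 35.2, 34.8 and 26.8 CPM in PB-MP (0.15 ± 0.21, edgeR adjusted p 0.809), with overlap. Hnrnpf, the member of this family with the highest level per length, was at 48.8, 76.7 and 65.5 CPM in control and 76.4, 53.5 and 45.6 CPM in PB-MP (-0.12 ± 0.25, edgeR adjusted p 0.875), and its groups overlapped as well. For Hnrnpf, 3 near-identical copies in the table summed to 24.5 CPM on average, so its reads could be split between rows.

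The A/B and D proteins are the classic hnRNPs, many of them repressors of exon inclusion or binders of AU-rich RNA. Hnrnpdl, a relative of the AU-rich element binding protein Hnrnpd, had the smallest p of all members. It was at 21.6, 15.2 and 21.2 CPM in control and 35.2, 38.7 and 34.8 CPM in PB-MP, a log2 fold change of 0.90 ± 0.19 (edgeR adjusted p 0.207). The highest control library stood well below the lowest PB-MP library. Hnrnpd itself, which speeds the decay of such mRNAs, was at 34.9, 29.0 and 35.1 CPM in control and 29.8, 29.4 and 16.8 CPM in PB-MP (-0.38 ± 0.25, edgeR adjusted p 0.572), with PB-MP replicate 3 the lowest of all 6. Hnrnpa3 was at 47.6, 104 and 64.5 CPM in control and 100.5, 99.1 and 91.2 CPM in PB-MP (0.43 ± 0.28, edgeR adjusted p 0.573). Control replicate 2 was above every PB-MP library for this gene, and 24 near-identical copies of it summed to 17.8 CPM on average. Hnrnpa2b1, which had the highest level per transcript length of all members, was at 68.8, 165 and 107 CPM in control and 138, 154 and 70.2 CPM in PB-MP (0.088 ± 0.39, edgeR adjusted p 0.946), so both groups spread over 2-fold. Hnrnpa1, its close relative and a widely studied splicing repressor, was at 21.9, 25.7 and 29.1 CPM in control and 24.1, 24.0 and 19.4 CPM in PB-MP (-0.18 ± 0.18, edgeR adjusted p 0.725), with overlapping groups. Hnrnpab was lower in every PB-MP library but by little, at 119, 124 and 122 CPM in control and 114, 115 and 109.6 CPM in PB-MP (-0.11 ± 0.13). All 7 genes of this family had their lowest PB-MP value in replicate 3.

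**Figure D2:**
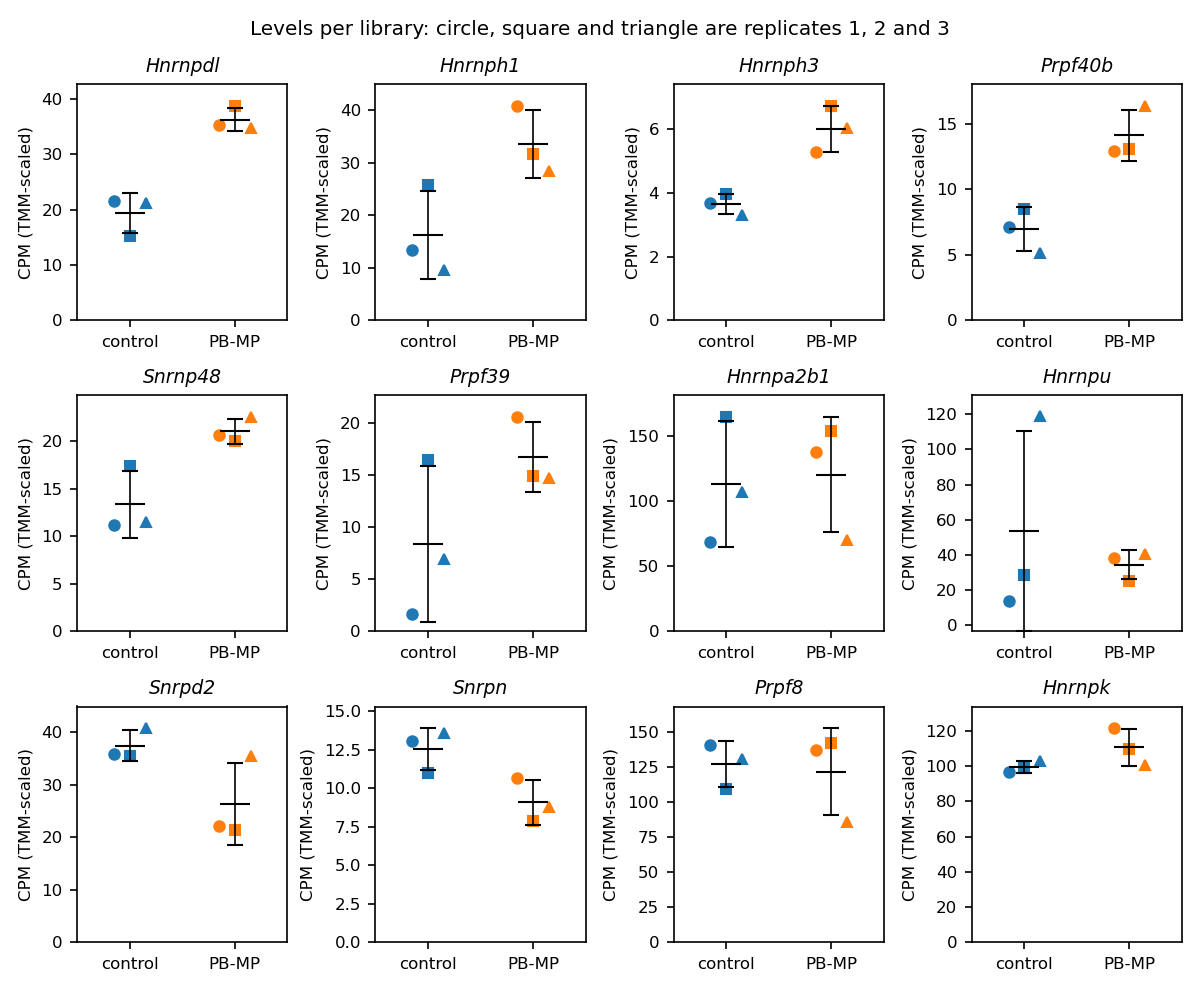
TMM-scaled CPM (y axis) of 12 members in the 3 control and 3 PB-MP libraries; points are single libraries, and bars are the mean and SD of each group (n = 3), the lower bar of control Hnrnpu reaching below 0. The groups do not overlap in the top row or for Snrnp48, Snrpd2 and Snrpn, while the control libraries of Prpf39 and Hnrnpu lie far apart.

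Of the other hnRNPs with KH or RRM domains, 0 of 6 had an unadjusted p below 0.05. Hnrnpk, which binds C-rich RNA and had the highest level per length among these, was at 96.6, 99.2 and 103 CPM in control and 122, 110.0 and 101 CPM in PB-MP (0.15 ± 0.14, edgeR adjusted p 0.696). Its 95% interval reached from -0.18 to 0.48, so a change of 1.5-fold in either direction lay outside it. Hnrnpl, a binder of CA repeats, was at 77.4, 64.9 and 69.0 CPM in control and 59.9, 69.9 and 50.9 CPM in PB-MP (-0.23 ± 0.17, edgeR adjusted p 0.623), with overlap. Its paralog Hnrnpll, known for splicing of Ptprc in lymphocytes, was at 19.7, 23.7 and 20.6 CPM in control and 22.0, 23.1 and 19.8 CPM in PB-MP (0.021 ± 0.16, edgeR adjusted p 0.970). These libraries differed little, and the groups overlapped. Hnrnpc, which binds runs of U, was at 37.9, 36.3 and 31.0 CPM in control and 33.4, 26.6 and 39.9 CPM in PB-MP (-0.075 ± 0.19, edgeR adjusted p 0.904). Hnrnpr was at 17.3, 23.1 and 19.2 CPM in control and 26.9, 25.9 and 20.4 CPM in PB-MP (0.29 ± 0.19, edgeR adjusted p 0.580). In Hnrnpm the PB-MP libraries, at 20.3 to 22.1 CPM, lay within a control group that ran from 9.18 to 30.1 CPM.

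Hnrnpu, a chromatin- and RNA-binding scaffold protein, had a value that turned on 1 library. It was at 13.3, 28.6 and 119 CPM in control and 37.8, 24.7 and 40.4 CPM in PB-MP, so control replicate 3 stood far above the other 5. The log2 fold change was -0.64 ± 0.72 with all libraries (edgeR adjusted p 0.760) and 0.71 ± 0.39 without control replicate 3. In the reference annotation Hnrnpu overlaps Cox20 on the opposite strand, and the strand setting of the counting is not given. Among its relatives, Hnrnpul1 was at 63.1, 57.3 and 57.3 CPM in control and 58.1, 64.4 and 30.9 CPM in PB-MP (-0.21 ± 0.27, edgeR adjusted p 0.791). Hnrnpul2 was at 76.3, 84.5 and 67.4 CPM in control and 88.9, 93.0 and 53.4 CPM in PB-MP (0.045 ± 0.23, edgeR adjusted p 0.955), and for both genes PB-MP replicate 3 was the lowest of the 6 libraries.

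The Sm proteins form the ring around the small nuclear RNA of every spliceosomal snRNP except those of the U6 type. Their 8 genes had a median log2 fold change of -0.30, and all 8 estimates were below 0 in the main fit, under TMM. Under TMM without a filter they were 7 of 8, and with a filter of 1 CPM 6 of 8. Leaving out ribosomal RNA and mitochondrial rows under TMM also gave 6 of 8. They were 6 of 8 with upper quartile scaling and 5 of 8 by library size alone, where the median was -0.089. Without PB-MP replicate 2 they were 5 of 8 as well. None had an unadjusted p below 0.05, and 3 of 8 (37.5%) lay below control without overlap, against 8.49% of all genes and 10.7% of genes with a coding length under 1000 bases, as all 8 are. Snrpd2 was at 35.8, 35.5 and 40.8 CPM in control and 22.2, 21.5 and 35.4 CPM in PB-MP (-0.50 ± 0.23, edgeR adjusted p 0.433), where PB-MP replicate 3 came to just under the lowest control library. Snrpn encodes SmN, an imprinted Sm protein known mainly from brain, and its row shares exons with Snurf. It was at 13.1, 11.01 and 13.6 CPM in control and 10.7, 7.85 and 8.76 CPM in PB-MP (-0.47 ± 0.20, edgeR adjusted p 0.419), the groups being separated by a small gap. Snrpg was at 15.2, 12.9 and 15.9 CPM in control and 11.2, 11.9 and 12.1 CPM in PB-MP (-0.32 ± 0.17, edgeR adjusted p 0.496), also without overlap. Snrpb, the widely expressed counterpart of Snrpn and the Sm gene of highest level per length, was at 49.4, 30.8 and 43.2 CPM in control and 31.7, 36.3 and 33.7 CPM in PB-MP (-0.28 ± 0.20, edgeR adjusted p 0.619). Here control replicate 2 lay below all PB-MP libraries, so the groups overlapped. Snrpd1 was at 7.31, 9.37 and 7.90 CPM in control and 6.81, 6.15 and 11.5 CPM in PB-MP (-0.0086 ± 0.28, edgeR adjusted p 0.993), with PB-MP replicate 3 the highest of all libraries. Snrpf, Snrpd3 and Snrpe had estimates of -0.33 ± 0.24, -0.11 ± 0.23 and -0.010 ± 0.24.

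Both U1 proteins within the rule had estimates near 0. Snrpa, the protein that binds a loop of the U1 RNA, was at 20.7, 17.5 and 24.1 CPM in control and 19.1, 19.7 and 26.7 CPM in PB-MP (0.070 ± 0.21, edgeR adjusted p 0.920), and Snrpc, which helps U1 hold the start of the intron, was at 17.3, 14.1 and 16.2 CPM in control and 14.5, 13.1 and 20.1 CPM in PB-MP (0.0055 ± 0.22, edgeR adjusted p 0.994). In both genes PB-MP replicate 3 was the highest library of all. The third U1 protein gene, Snrnp70, lies outside the rule. It was at 35.9, 41.7 and 22.5 CPM in control and 99.8, 82.9 and 99.7 CPM in PB-MP (1.497 ± 0.25, edgeR adjusted p 0.207), so its libraries did not overlap.

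Of the 11 genes of the U2 particle and of SF3A and SF3B, none had an unadjusted p below 0.05, and 8 had an interval within -1 to 1. Sf3b1, the branch point scaffold that is often mutated in blood disorders, was at 60.2, 53.6 and 66.2 CPM in control and 68.1, 72.2 and 62.2 CPM in PB-MP (0.17 ± 0.15, edgeR adjusted p 0.683). Sf3b2, its partner of highest level per length in the group, was at 86.1, 69.9 and 80.4 CPM in control and 81.7, 81.9 and 61.7 CPM in PB-MP (-0.069 ± 0.17, edgeR adjusted p 0.902). Both spread little, and their groups overlapped. Snrpa1, a protein of U2, was at 2.70, 4.92 and 7.07 CPM in control and 5.78, 7.51 and 9.66 CPM in PB-MP (0.64 ± 0.38, edgeR adjusted p 0.531), with control libraries that differed by over 2-fold. Sf3a2 was at 8.36, 11.9 and 7.66 CPM in control and 11.9, 11.3 and 10.4 CPM in PB-MP (0.27 ± 0.22, edgeR adjusted p 0.668), control replicate 2 standing at the level of the highest PB-MP library. The small subunits Sf3b5 and Sf3b6 were set apart by PB-MP replicate 3. Sf3b6, which touches the branch point, was at 15.9, 23.7 and 22.1 CPM in control and 19.97, 16.4 and 40.1 CPM in PB-MP, and Sf3b5 was at 23.0, 16.7 and 22.6 CPM in control and 12.4, 12.9 and 26.0 CPM in PB-MP.

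The 8 genes of U5 and of the U4/U6 part of the tri-snRNP had a median log2 fold change of -0.07, and all 8 intervals lay within -1 to 1. Prpf8, the protein at the catalytic centre and the member with the most reads, was at 141, 109.6 and 131 CPM in control and 138, 142 and 86.2 CPM in PB-MP (-0.061 ± 0.23, edgeR adjusted p 0.934). PB-MP replicate 3 was below every control library, and the other PB-MP libraries were within or above the control range. The same library was lowest for Snrnp200, the helicase that unwinds U4 from U6, at 42.9, 40.5 and 42.6 CPM in control and 48.9, 48.7 and 32.2 CPM in PB-MP (0.043 ± 0.20, edgeR adjusted p 0.946). Prpf6, which bridges U5 to U4/U6, was at 53.1, 46.5 and 41.2 CPM in control and 42.6, 47.2 and 28.6 CPM in PB-MP (-0.25 ± 0.22, edgeR adjusted p 0.688). Prpf31 and Prpf3 sit on U4/U6, and Prpf31 was at 9.95, 9.26 and 10.3 CPM in control and 9.69, 9.63 and 9.20 CPM in PB-MP (-0.049 ± 0.17, edgeR adjusted p 0.928). Its 6 libraries differed by little. Prpf3 was at 6.15, 5.94 and 5.35 CPM in control and 5.57, 7.86 and 7.30 CPM in PB-MP (0.25 ± 0.21, edgeR adjusted p 0.672), and Snrnp40, a U5 protein, was at 8.25, 6.42 and 7.72 CPM in control and 6.54, 5.98 and 6.93 CPM in PB-MP (-0.20 ± 0.19, edgeR adjusted p 0.709). Both overlapped between groups.

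Of the 3 proteins of the U11/U12 particle, which recognises minor introns, 1 was higher and 1 lower in every PB-MP library. Snrnp48 was at 11.2, 17.4 and 11.5 CPM in control and 20.6, 20.01 and 22.5 CPM in PB-MP (0.66 ± 0.22, edgeR adjusted p 0.333), and its p was above 0.05 without control replicate 1 or 3. Snrnp25 was at 1.76, 1.88 and 2.11 CPM in control and 1.58, 1.25 and 1.57 CPM in PB-MP (-0.38 ± 0.24, edgeR adjusted p 0.556). Snrnp35 was at 4.97, 3.55 and 3.98 CPM in control and 4.08, 3.69 and 3.60 CPM in PB-MP (-0.14 ± 0.22, edgeR adjusted p 0.840), its groups overlapping. Proteins of the same particle thus differed in the sign of their estimates.

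Among the other PRPF genes, 4 of 8 had an interval reaching beyond -1 to 1. Prpf40b, a mammalian counterpart of a yeast protein that joins U1 to the branch point side of the intron, was at 7.14, 8.50 and 5.16 CPM in control and 12.9, 13.1 and 16.4 CPM in PB-MP (1.03 ± 0.24, edgeR adjusted p 0.234). Every PB-MP library was above every control library, and PB-MP replicate 3 was the highest. Prpf39, a further U1-associated protein, had the widest interval among these, at 1.66, 16.5 and 6.99 CPM in control and 20.6, 14.9 and 14.8 CPM in PB-MP (1.001 ± 0.69, edgeR adjusted p 0.599), and Fkbp3 overlaps it on the opposite strand. Control replicate 1 was 9.94-fold below control replicate 2, which was above 2 PB-MP libraries. Prpf4b, a kinase of the tri-snRNP, was at 9.001, 27.9 and 10.3 CPM in control and 18.9, 19.6 and 15.9 CPM in PB-MP (0.21 ± 0.43, edgeR adjusted p 0.879). The highest of its 6 libraries was control replicate 2. Prpf19, the ubiquitin ligase of the complex that carries its name, was at 98.1, 78.7 and 99.3 CPM in control and 78.7, 76.7 and 82.9 CPM in PB-MP (-0.21 ± 0.15, edgeR adjusted p 0.609). The second Prpf39 row was at 0 to 0.58 CPM, and Snrpert, with 12 reads in all, was not tested.

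Ratios of reads between related genes in the same library, in which the scaling cancels, were compared for 5 pairs, of which 4 are given. Hnrnph1 over Hnrnph2 was 0.575, 0.724 and 0.338 in control and 1.16, 0.911 and 1.06 in PB-MP. Hnrnpdl over Hnrnpd was 0.619, 0.525 and 0.604 in control and 1.18, 1.32 and 2.07 in PB-MP. In these 2 pairs every PB-MP ratio was above every control ratio, by 1.995-fold and 2.54-fold on average, and the exact two-sided permutation p was 0.1, the smallest that 3 against 3 libraries allow (0.25 after Benjamini-Hochberg adjustment over the 5 pairs). Hnrnph3 over Hnrnpf (exact p 0.2) and Snrpn over Snrpb (exact p 0.4) overlapped between groups. As Hnrnph1 and Hnrnpdl were followed up for their fold changes, their ratios are no independent evidence.

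**Figure D3:**
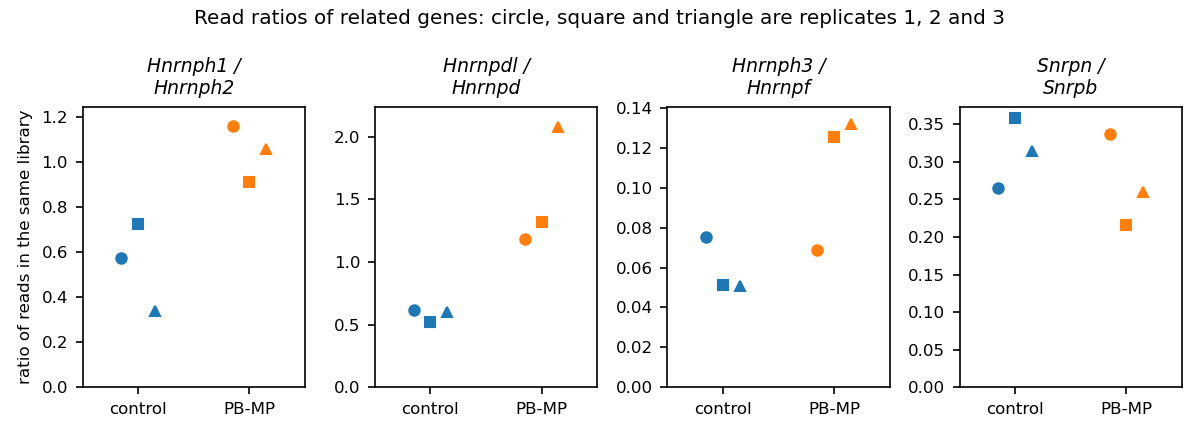
Ratio of reads of 2 related genes in the same library (y axis, linear from 0) in the 3 control and 3 PB-MP libraries, each point 1 library and each panel 1 pair. Hnrnph1 over Hnrnph2 and Hnrnpdl over Hnrnpd separate the groups, and the other 2 pairs overlap.

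Within the PB-MP group, replicate 3 differed from replicates 1 and 2 by the length of the coding sequence. For the 21 members with a coding length under 1000 bases, PB-MP replicate 3 was at a median log2 ratio of 0.46 to the mean of the other PB-MP libraries and was the highest of the 3 in 15. For the 39 members with a longer coding sequence the median was -0.27, and it was the lowest in 31. The same direction was seen over all genes with a length, at 0.27 for 4258 short and -0.18 for 9136 long genes. In the Sm ring the median was 0.60. In the members with the smallest p, all 5 of which are at least 1000 bases long, PB-MP replicate 3 was the highest library for Prpf40b and Snrnp48 and the lowest of PB-MP for Hnrnpdl and Hnrnph1. The 5 members below control without overlap were among the 21 short ones (23.8%, against 10.7% of all short genes), and 0 were among the 39 long ones (against 6.94% of long genes). The median log2 fold change of PB-MP over control was -0.11 over the short members and -0.072 over all short genes. Omitting PB-MP replicate 3 gave 4 members lower at an unadjusted p below 0.05 (6.56%, against 6.01% of all genes in the same fit) in place of 0, and 5 higher (8.20%, against 6.30%).

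**Figure D4:**
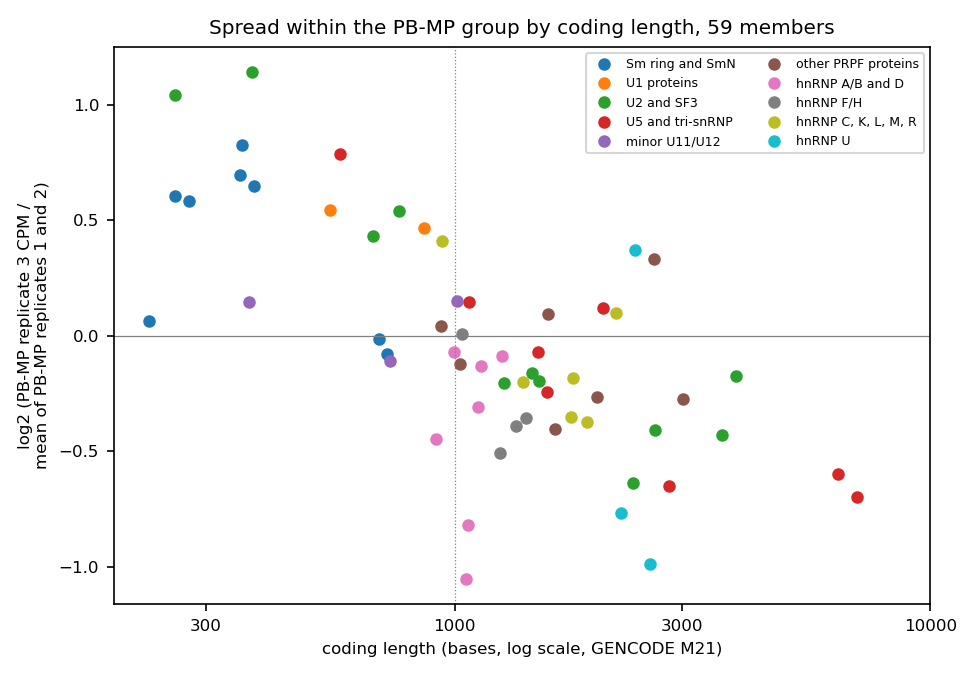
Log2 ratio of PB-MP replicate 3 to the mean of PB-MP replicates 1 and 2 (y axis) against coding length in bases (x axis, log scale) for 59 members coloured by role, with a dotted line at 1000 bases. Most short members lie above 0 and most long members below it.

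Single control libraries also set values. Control replicate 3 did so for Hnrnpu and Hnrnpm, and control replicate 1 was the lowest for Prpf39. Without control replicate 1, 3 members were higher and 0 lower at an unadjusted p below 0.05 (4.92%, against 6.01% of all genes higher). Control replicate 2 was above every PB-MP library or within their range for Prpf39, Prpf4b, Hnrnpa3 and Hnrnpa2b1. In all, 11 members differed by over 2-fold between control libraries (18.0%, against 19.4% of genes of at least 1 CPM) and 5 between PB-MP libraries (8.20%, against 17.7%). Malat1, a nuclear long noncoding RNA, was at 165, 412 and 153 CPM in control and 365, 333 and 366 CPM in PB-MP, so control replicate 2 stood with the PB-MP libraries. Neat1 was at 30.1, 60.1 and 6.31 CPM in control and 188, 80.8 and 92.5 CPM in PB-MP. The ribosomal RNA row Rn18s took 2.92, 11.2 and 1.15% of the reads in control and 3.61, 9.42 and 0.707% in PB-MP. The part of nuclear RNA content or of ribosomal RNA in the members' values was not tested. Omitting control replicate 2 gave 10 members higher at an unadjusted p below 0.05 (16.4%, against 10.7% of all genes in the same fit) and 3 lower (4.92%, against 7.09%).

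Many genes of these families carry annotated transcripts that end early or keep an intron, and gene counts sum over such forms. Of the 22 members with an annotated nonsense-mediated decay transcript, 3 had an unadjusted p below 0.05 in the higher direction (13.6%, against 6.95% of all genes with such a transcript), with a median log2 fold change of 0.12 (0.02 over all such genes). Of the 38 without one, 2 did (5.26%, against 4.53%), with a median of -0.07 (-0.03 over all such genes). Of the 42 with a retained-intron transcript 4 did (9.52%, against 5.85%), and of the 18 without one 1 did (5.56%, against 4.32%). Which form the added reads came from cannot be read from gene counts. Opposite-strand genes overlapped 19 members, and 10 had near-identical copies elsewhere.

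In other lists of splicing genes, no gene passed the adjusted threshold in edgeR. DESeq2 called 7 higher (Snrnp70, Clk1, Clk2, Srsf5, Srsf6, Pnn and Rnpc3) and 1 lower (Ddx17) of 160 with an adjusted p. Over all genes DESeq2 called 1.72% higher and 0.719% lower. At an unadjusted p below 0.05 in edgeR, 7.35% of all genes were higher and 4.74% lower, and the list shares below are to be read beside these. Of 19 tested SR protein, CLK kinase and Snrnp70 genes, 10 had an unadjusted p below 0.05 in the higher direction (52.6%) and 0 in the lower. This list joins the U1 gene Snrnp70 to the SR and CLK genes and was drawn up with earlier results of these data known. Its share is therefore no independent evidence. The 19 had a median log2 fold change of 0.59, and Clk2 (1.503 ± 0.29) and Srsf6 (0.93 ± 0.20) were among the 10. The U1-associated LUC7 and RBM proteins, with 2 of 7 higher (28.6%) and a median of 0.59, included Rbm25 (0.82 ± 0.24) and Tia1 (0.89 ± 0.35). Of 11 exon junction genes 2 were higher at that p (18.2%), Pnn (1.85 ± 0.40) and Srrm2 (0.65 ± 0.21), at a median of -0.02. Of 13 helicases 1 was higher (7.69%), Ddx5 (0.66 ± 0.18), and 2 were lower (15.4%), Ddx17 (-1.35 ± 0.36) and Ddx39b (-1.12 ± 0.40). Of 9 minor spliceosome genes outside the rule 1 was higher (11.1%), Rnpc3 (1.09 ± 0.31), which binds U11/U12 snRNA. Among 31 other hnRNP-like binders 1 was higher (3.23%), Cirbp (0.88 ± 0.24), a cold-induced RNA-binding protein.

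In the lists nearest to the core particle, few genes had a small p. Of 10 LSm genes, most but not all of which encode the ring that sits on U6, 1 was lower at an unadjusted p below 0.05. It was Lsm3 (-0.55 ± 0.22), and the median of the list was -0.15. Of 9 branch point and intron end recognition genes 1 was lower (11.1%), U2af1l4 (-1.22 ± 0.35). None of 15 genes of the Prpf19 complex and its partners (median 0.08), 9 other tri-snRNP genes (-0.14) or 18 genes of SMN-dependent snRNP assembly (-0.01) had such a p. Rows of the small nuclear RNAs themselves, which poly(A) selection largely removes, summed to 10.8, 73.4 and 6.55 CPM in control and 22.9, 36.8 and 1.15 CPM in PB-MP. In all 6 tested rows control replicate 2 was the highest control library and PB-MP replicate 3 the lowest PB-MP library.

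Markers of other liver cell types were read in the same libraries, and none passed the adjusted threshold in edgeR. Of 62 markers with an adjusted p, hepatocyte markers included, DESeq2 called Marco and S100a9 higher and Col1a1, Jchain, Cfd and Cidec lower. Over all genes DESeq2 called 1.72% higher and 0.719% lower. The counts below are at an unadjusted p below 0.05 in edgeR, where 7.35% of all genes were higher and 4.74% lower. Kupffer cell markers summed to 121, 94.97 and 127 CPM in control and 138, 124 and 258 CPM in PB-MP, with 3 of 7 higher at an unadjusted p below 0.05. PB-MP replicate 3 was the highest PB-MP library for all 7 of them and for all 4 tested neutrophil markers. Neutrophil markers summed to 1.17 to 1.74 and 3.04 to 5.48 CPM (3 of 4 tested higher, Ly6g at 0 in all libraries). Stellate cell markers summed to 285 to 295 and 159 to 275 CPM (3 of 7 lower). Lymphocyte markers summed to 37.2, 179 and 19.4 CPM in control and 31.5, 35.0 and 69.8 CPM in PB-MP (4 of 8 lower). Control replicate 2 was the highest control library for 7 of the 8 and set the top of the control sums. Adipocyte markers summed to 20.3 to 70.3 and 8.62 to 22.5 CPM (2 of 3 tested lower, Lep at 0). Proliferating cell markers summed to 3.40, 9.65 and 3.81 CPM in control and 2.903 to 3.25 CPM in PB-MP (2 of 6 lower). Of 7 sinusoidal endothelium markers (median log2 fold change -0.04) and 5 tested cholangiocyte markers, 0 had such a p in either direction. Of 5 red blood cell markers 1 was higher. Neuron markers, of note for Snrpn, summed to 0.83 to 1.42 and 0.61 to 0.99 CPM, with Snap25 at 0 in all libraries. The part of these cell types in the members' values was not tested.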

How the data were processed

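Poly(A)-selected liver RNA was sequenced from a directional kit, per the labels' protocols. The submitters' processing notes name bcl2fastq and GRCm39 without roles. Not given in the sources used here were the aligner, counter, annotation and strand setting. Raw counts of reads for each symbol were deposited by the authors, identical in the table and the 6 single files. No library repeated another (chi-square per degree of freedom at least 181). Groups follow the labels. Genes were kept by filterByExpr (minimum count 10, minimum total 15), scaled by TMM and tested over 17871 genes in R 4.3.3 with edgeR 4.0.16 (quasi-likelihood, threshold 0.05 after Benjamini-Hochberg adjustment). The tests were tested on simulated data first. Alternatives were other scalings and filters, DESeq2 1.42.0, limma 3.58.1 (voom), robust estimation, a replicate block and leaving out libraries. GENCODE M21 on GRCm38 served for lengths, transcript classes, overlaps and copies (at least 95% identity over at least 50% of the coding sequence). Its transcript starts also served to choose among listed start sites, while the printed promoter coordinates are those of the RefSeq table. Members described in full are, per role, up to 3 of smallest p, that of highest mean CPM per kilobase of transcript, and 18 anchor genes; others are named for completeness. A gene of the set, with its ratio, is not reported here and not drawn, but is kept in all counts. Members and lists were chosen with earlier results of these data known.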

Additional observations from a re-analysis of the deposited data

How the results depend on the processing

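The count of members past the adjusted threshold was 0 in every edgeR and limma setting run and 2 with DESeq2, and that of all genes was 0 except for 512 with DESeq2, 2 with both control replicate 2 and PB-MP replicate 3 omitted, and 0 to 1 with single libraries left out (1 without control replicate 1). Members higher at an unadjusted p below 0.05 were 5 (8.20%, against 7.35% of all genes in the same fit). They were 9 by library size alone (14.8%, against 14.1%) and 11 with quality weights (18.0%, against 13.9%). With both libraries left out they were 14 (23.3%, against 12.5%). With single libraries left out they were 3 to 10 (4.92 to 16.4%, against 4.77 to 10.7%). Members lower were 0, against 4.74% of all genes. They were 2 with limma-voom (3.28%, against 4.84%), 5 with quality weights (8.20%, against 9.56%) and 1 with robust estimation (1.64%, against 4.66%). With both left out they were 5 (8.33%, against 11.4%), and with single libraries left out 0 to 4 (0 to 6.56%, against 2.84 to 7.09%). The replicate block gave 6 higher (9.84%, against 6.55%) and 1 lower (1.64%, against 3.73%) and a median of -0.038 (-0.0104 without it). Samples with the same number correlated at -0.0869, 0.0935 and 0.0816. Replicates 2 and 3 of both groups correlated best with their own number, but replicate 1 of either group did not. Rn18s was highest in replicate 2 (11.2% of reads in control, 9.42% in PB-MP) and lowest in replicate 3 (1.15 and 0.707%) of both groups. The summed small nuclear RNA rows ran the same way. The numbers were not taken to pair samples, and whether they mark a shared batch was not tested. By library size alone the members' median was 0.21, near the 0.23 of all genes. Under that scaling 17 members lay above control without overlap and 0 below. The matching share of all genes is not given here, so these counts are not read as a result about the members. The same 5 members had a p below 0.05 in all settings that kept every library. Among the 41 members described in full by the naming rule, 19 changed sign under some setting. By library size alone these were Hnrnpa1 0.037, Hnrnpc 0.15, Hnrnpf 0.11, Hnrnpul1 0.0036, Prpf19 0.0031, Prpf31 0.17, Prpf8 0.15, Sf3b2 0.15, Snrnp35 0.078, Snrnp40 0.013 and Snrpd1 0.22. Snrpd1 also turned with upper quartile scaling (0.034), without ribosomal and mitochondrial rows (0.016), without a filter (0.0064), with a filter of 1 CPM (0.021) and in DESeq2 (0.0038). With quality weights they were Hnrnpf 0.091, Prpf8 0.028, Snrpa -0.11 and Snrpc -0.15, and Snrpc was -0.014 in limma-voom and -0.014 with the block. With both libraries left out they were Hnrnpf 0.17, Hnrnpul1 0.011, Prpf8 0.026, Snrpa -0.23 and Snrpc -0.29. The cause was not tested. With single libraries left out the log2 fold changes of the members that turned ran as follows: Hnrnpa2b1 -0.18 to 0.42, Hnrnpc -0.23 to 0.062, Hnrnpf -0.36 to 0.025, Hnrnpll -0.039 to 0.078, Hnrnpu -1.13 to 0.71, Hnrnpul1 -0.41 to 0.046, Hnrnpul2 -0.10 to 0.26, Prpf4b -0.071 to 0.88, Prpf8 -0.19 to 0.13, Sf3b2 -0.18 to 0.052, Snrnp200 -0.053 to 0.21, Snrpa -0.11 to 0.19, Snrpc -0.20 to 0.13 and Snrpd1 -0.34 to 0.16.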
